A study of Rattus norvegicus with 2 samples.

Results

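The genes described here are the transcription factor gene Nfe2l2, which encodes Nrf2, and 9 genes that Nrf2 is known to switch on: Slc7a11, Gclc, Gclm, Gsr, Nqo1, Hmox1, Srxn1, Txnrd1 and Osgin1. They were taken by symbol from the deposited expression table, which held all 10 among its 17049 genes, and each reached 1 TPM or more, TPM being a level adjusted for gene length and depth. The RNA came from primary oligodendrocyte precursor cells (OPCs), the dividing glia that give rise to myelinating oligodendrocytes, of adult wild-type rat brain. One culture was given the Alzheimer's disease peptide amyloid-β (Aβ) at 1 µM for 2 days, and the control culture received the solvent DMSO, per the treatment label. The comparison asks how the transcripts of these cells differ with Aβ. Each group had 1 library, of 15704932 (Aβ) and 15663751 (DMSO) estimated reads. No difference below could be checked against replicates, and none carries a p-value. The labels do not say how pure the cultures were or how many animals they came from.

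Nrf2 is made continuously and is normally marked for degradation by its partner Keap1, which acts as the cell's sensor of oxidants and reactive chemicals. When Keap1 is modified by such agents, Nrf2 accumulates, pairs with a small Maf protein and binds short DNA motifs called antioxidant response elements near its targets. Because this control acts on the protein, the Nfe2l2 transcript is not itself a measure of Nrf2 activity. Among the targets, Slc7a11 imports cystine, Gclc and Gclm form the enzyme that starts glutathione synthesis, and Gsr regenerates glutathione after it has been oxidised. OPCs are known as cells of low glutathione content that tolerate oxidants poorly.

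The antioxidant response element is the feature that joins these genes on the DNA side, so its core letters, TGACNNNGC on either strand, were searched in RefSeq promoters of the rat build GRCr8, each reaching from 250 bases before to 50 after the transcription start. The table gave 9 promoters for 8 of the 10 genes, and Gsr and Hmox1 were not matched. The core was found in 3 of the 9 member promoters, those of Gclm, Txnrd1 (1 of its 2 starts) and Nfe2l2, and in 12.1% of all 33469 promoters in the table. The stretches around the 2 matches that lie before the start are shown first. Capitals mark the core, which lies on the strand opposite to the gene in both and so reads GCNNNGTCA.
Gclm, chr2:213031913-213032021, plus strand, core beginning 172 bases before the start: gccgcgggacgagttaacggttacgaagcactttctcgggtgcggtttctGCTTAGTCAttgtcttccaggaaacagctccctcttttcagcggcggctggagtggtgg
Txnrd1, chr7:22755924-22756032, minus strand, core beginning 78 bases before the start: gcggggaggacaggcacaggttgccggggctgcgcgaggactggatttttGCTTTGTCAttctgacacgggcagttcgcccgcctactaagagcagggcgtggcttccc
The third match lay at transcribed base 39 of Nfe2l2. By the calls described below, Nfe2l2 was higher and Gclm and Txnrd1 were lower in the Aβ library. Any bearing of the core on these differences was not tested.
Nfe2l2, chr3:81028950-81028971, minus strand: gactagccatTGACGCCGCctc
The AP-1 site TGANTCA, bound by Fos and Jun proteins, can overlap the core and was searched in the same way. Of the member promoters only that of Srxn1 held it, against 7.33% of all promoters, and it was there at 2 places, 62 and 5 bases before the start. The site at 5 bases is followed by GC. It thus differs from the core TGACNNNGC only by a G in place of the first C.
Srxn1, chr3:161064740-161064766, plus strand: tctgagggccTGAGTCAccacgctgtg
Srxn1, chr3:161064797-161064823, plus strand: aaactcacccTGAGTCAgcgacccgac
These matches describe letters in a short window and do not show that a factor is bound there. Elements further from the start were not searched.

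In both libraries 9 of the 10 genes were well expressed, between 51.6 and 194 TPM in the DMSO library and between 55.4 and 184 TPM in the Aβ library. Osgin1, which encodes a growth inhibitor induced by oxidative stress, stood apart at 3.07 TPM (Aβ) and 4.37 TPM (DMSO). Txnrd1 and Gclc were the most abundant in both, followed by Nqo1 and Nfe2l2. In the DMSO library the counting intervals of the TPM values overlapped between Nqo1 and Nfe2l2, between Srxn1 and Hmox1, and between Hmox1 and Gclm, so those neighbours were not separated. In the Aβ library they overlapped between Gclc and Txnrd1, among Srxn1, Hmox1 and Slc7a11, and between Gsr and Gclm. The order differed between the libraries at 4 places: Gclc and Txnrd1, Nqo1 and Nfe2l2, and Gclm and Gsr exchanged positions, and Slc7a11 stood above Srxn1 and Hmox1 with DMSO but below them with Aβ. Together the 10 genes held 0.167% of the reads with Aβ and 0.173% with DMSO.

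**Figure D1:**
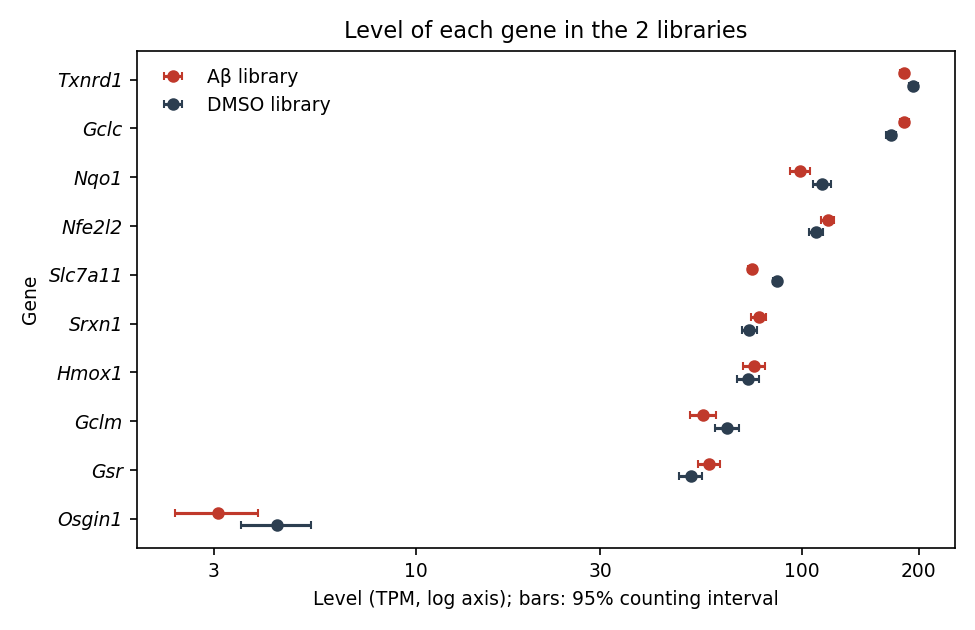
Level of each of the 10 genes in TPM (log axis) in the Aβ library (red) and the DMSO library (dark blue), 1 library per group; bars are exact 95% counting intervals. Osgin1 lies at 3.07 and 4.37 TPM and the other genes lie between 51.6 and 194 TPM.

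Differences are given below as read ratios, the reads per total reads in the Aβ library over those in the DMSO library. Each has an exact Clopper-Pearson 95% interval that covers counting error only and compares these 2 libraries, not the conditions. A gene is called higher or lower where that interval excludes 1. By this rule 5 of the 10 genes were lower in the Aβ library, 3 were higher and 2 were neither. Of all 12980 genes that reached 1 TPM in at least 1 library, 12.5% were lower and 12% higher. Most of the 10 genes had many reads, which narrows the interval, so they were also set beside genes above a floor of reads. Of the 9 with 1000 reads or more over both libraries 4 were lower and 3 higher, against 17.0% and 14.8% of 6500 such genes. This floor is not a match of depth. The 9 genes reached from 1471 reads over both libraries to 6438 and 7493 for Slc7a11, so an effect of depth on the calls remains. The differences were small. As a rule of size, one library had to hold 0.8 or less of the other's reads per total. No gene was higher with Aβ by this rule (7.57% of all genes), Osgin1 alone was lower (6.54% of all genes), and none reached 2-fold either way (0.963% and 1.16% of all genes). The median log2 read ratio of the 10 genes was −0.02, beside 0.00 for all genes.

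**Figure D2:**
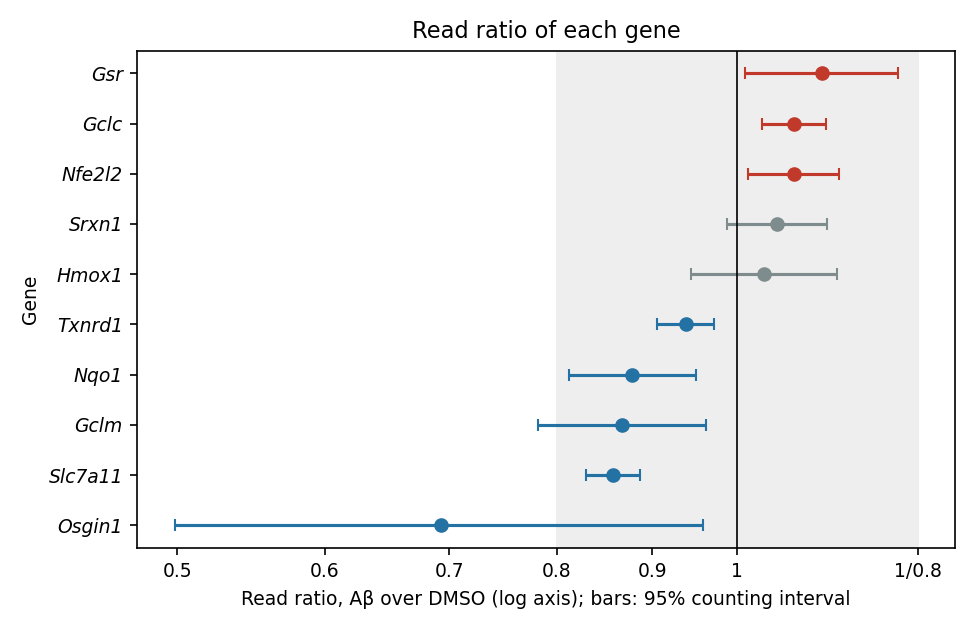
Read ratio of each gene, Aβ over DMSO (log axis), with exact 95% counting intervals; red marks an interval above 1, blue below 1, grey one that holds 1, and the shaded band runs from 0.8 to its inverse. Only Osgin1 lies outside the band, and the calls divide into 3 higher and 5 lower.

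The regulator itself was slightly higher with Aβ. Nfe2l2 (gene number 83619) was at 116 TPM in the Aβ library and 108 TPM in the DMSO library, on 2585 and 2405 reads. The Aβ value was the larger, with a read ratio of 1.07 (95% interval 1.01 to 1.13). Keap1, its inhibitor, was level at 26.4 and 26.5 TPM (ratio 0.990, 0.897 to 1.09). The reads of Nfe2l2 relative to Keap1 in the Aβ library were 1.08 (0.967 to 1.21) times those in the DMSO library. That pair was chosen after the values were seen. Mafg, a small Maf partner, was at 33.4 and 33.1 TPM (0.989, 0.928 to 1.05). In bulk RNA such as this, fewer cells of a type and less RNA per cell cannot be told apart, which holds for every ratio below.

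Slc7a11, the member of cystine import and the gene with the most reads of the 10, was lower with Aβ. Slc7a11 (gene number 310392), the transporter subunit that exchanges cystine for glutamate, was at 74.2 TPM with Aβ and 85.8 TPM with DMSO, on 6438 and 7493 reads. The Aβ library was the lower, with a ratio of 0.857 (0.829 to 0.886), and 7.83% of the 6500 genes with 1000 reads or more lay further from equal. Its partner chain Slc3a2, which carries the transporter to the cell surface and also serves other amino acid transporters, was at 303 and 311 TPM (0.971, 0.934 to 1.01). The TPM of Slc7a11 relative to Slc3a2 was 0.245 with Aβ and 0.276 with DMSO. The reads of Slc7a11 relative to Slc3a2 in the Aβ library were 0.882 (0.838 to 0.929) times those in the DMSO library. This value does not depend on the library totals, but the pair was chosen after the values were seen.

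The pair of genes for glutamate-cysteine ligase, the rate-limiting enzyme of glutathione synthesis, went in opposite directions. Gclc (25283), the catalytic subunit, was at 184 TPM with Aβ and 170 TPM with DMSO, on 5260 and 4891 reads. It was higher in the Aβ library, with a ratio of 1.07 (1.03 to 1.12). Gclm (29739), the modifier subunit that raises the enzyme's efficiency, was at 55.4 and 63.9 TPM, on 684 and 787 reads. It was lower in the Aβ library, with a ratio of 0.867 (0.781 to 0.962). Catalytic transcripts outnumbered modifier transcripts in both libraries, 3.31 to 1 by TPM with Aβ and 2.66 to 1 with DMSO. The reads of Gclc relative to Gclm were 1.24 (1.11 to 1.38) times as high in the Aβ library. These comparisons within libraries were chosen after the values were seen. Gss, which completes glutathione, was at 57.2 and 52.3 TPM (1.09, 0.992 to 1.20), so that Gclc relative to Gss gave 0.985 (0.890 to 1.09).

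Recycling of glutathione and of thioredoxin also pointed different ways. Gsr (116686), glutathione reductase, was at 57.4 TPM with Aβ and 51.6 TPM with DMSO, on 926 and 832 reads. It had the highest ratio of the 10 genes, 1.11 (1.01 to 1.22), and 18.7% of the deeply sequenced genes lay further from equal. Txnrd1 (58819), the cytosolic thioredoxin reductase, was at 183 and 194 TPM, on 5996 and 6375 reads. It was lower in the Aβ library at 0.938 (0.905 to 0.972), and 39.1% of the deeply sequenced genes lay further from equal. Srxn1 (296271), sulfiredoxin, which restores over-oxidised peroxiredoxins, was at 77.2 and 73.0 TPM, on 2074 and 1969 reads. Its interval held 1 (1.05, 0.987 to 1.12). Reads of Txnrd1 relative to Gsr were 0.845 (0.764 to 0.935) times those of the DMSO library. This pair was chosen after its genes were seen to be called in opposite directions, so the value adds no separate evidence.

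Of the detoxifying enzymes, Nqo1 was lower and Hmox1 was not separated. Nqo1 (24314), a quinone reductase and a much used indicator of Nrf2 activity, was at 98.7 TPM with Aβ and 112 TPM with DMSO, on 1185 and 1346 reads. The ratio was 0.878 (0.811 to 0.950), and 11.7% of the deeply sequenced genes lay further from equal. Relative to the reads of Nfe2l2, those of Nqo1 were 0.819 (0.743 to 0.902) times the DMSO value. This pair too was chosen after its genes were seen to be called in opposite directions. Hmox1 (24451), heme oxygenase, which breaks down heme and answers to several stress and inflammatory factors beside Nrf2, was at 75.0 and 72.5 TPM, on 972 and 938 reads. Its ratio was 1.03 (0.944 to 1.13), and 64.2% of the deeply sequenced genes lay further from equal. Osgin1 (171493) was at 3.07 and 4.37 TPM, on only 66 and 95 reads. It had the lowest ratio, 0.693, with the widest interval (0.498 to 0.959).

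**Figure D3:**
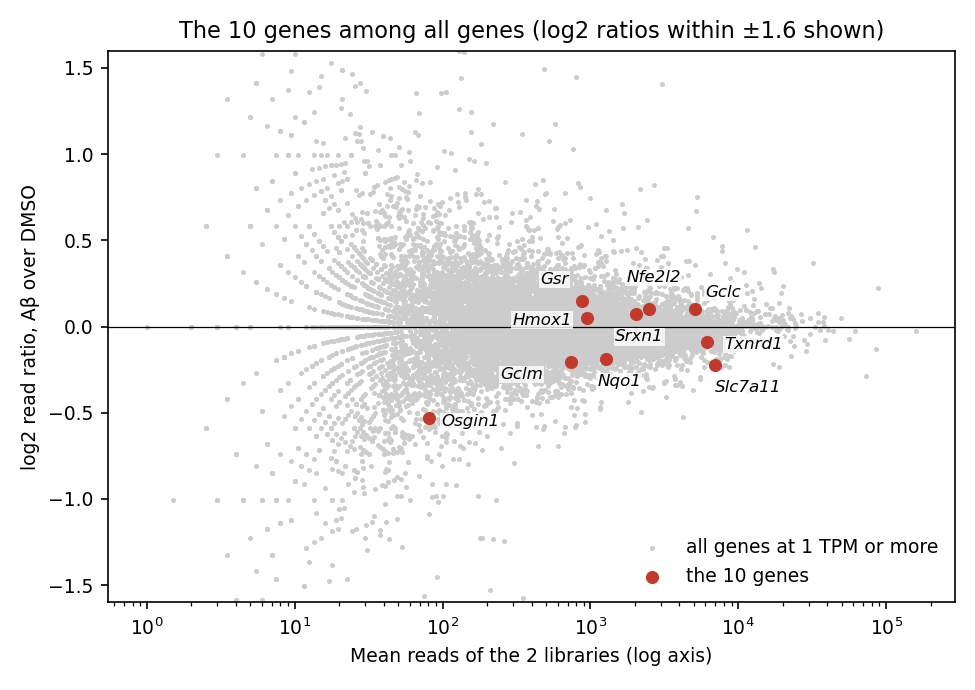
The 10 genes (red) among all genes at 1 TPM or more (grey): mean reads of the 2 libraries (log axis) against the log2 read ratio, Aβ over DMSO. Slc7a11 lies low for its read number, while Osgin1 lies where few reads spread all genes widely.

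The wider pathway was followed in 10 further lists, described by their medians and by how many genes were called, beside the 12% called higher and 12.5% called lower among all genes. Genes that control Nrf2 had a median log2 read ratio of −0.04, with 1 of 16 measured called higher and 5 lower. Sqstm1, which sequesters Keap1, was at 259 and 282 TPM (0.921, 0.884 to 0.960). The coactivator Crebbp was at 7.50 and 8.36 TPM (0.890, 0.806 to 0.983). Bach1, the repressor that competes with Nrf2 for its motif, was at 16.1 and 14.0 TPM (1.13, 0.998 to 1.29). Its reads were divided, meaning that its estimated counts were not whole.

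Genes of cystine supply, glutathione synthesis and glutathione breakdown, other than the members, had a median of 0.02, with 7 of 21 called higher and 0 lower. Slc1a5, a carrier of glutamine and other neutral amino acids, was at 115 and 93.6 TPM (1.22, 1.16 to 1.29). Anpep, an aminopeptidase that acts on the products of glutathione breakdown outside the cell, was at 22.3 and 17.6 TPM (1.23, 1.11 to 1.37). The largest ratios among the genes named here were those of Chac1 and Ggct. Chac1, which cleaves glutathione in the cytosol, was at 3.03 TPM with Aβ and 1.14 TPM with DMSO, on 40 and 15 reads (2.66, 1.44 to 5.18). Ggct, which acts on gamma-glutamyl amino acids, had 89 and 59 reads (1.50, 1.07 to 2.13). Chac2, the related enzyme, had 84 and 97 reads (0.864, 0.637 to 1.17). Cth, which makes cysteine from cystathionine, was at 39.9 and 34.6 TPM on divided reads (1.15, 1.02 to 1.30). Chac2 and Cth were named after their values were seen.

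Genes that use glutathione had a median of 0.01, with 3 of 32 called higher and 1 lower, and 1 of those 3 had whole reads. Gpx4, the peroxidase that protects membranes from lipid peroxides, was at 453 and 441 TPM (1.04, 0.986 to 1.10). Gpx3, the secreted peroxidase, was lower in the Aβ library at 8.30 and 13.4 TPM (0.618, 0.477 to 0.797). Mgst3 was at 40.1 and 47.6 TPM (0.862, 0.693 to 1.07) and Gstt1 had 59 and 49 reads (1.20, 0.808 to 1.79). Gstm5, named after its values were seen, was listed at 52.8 and 4.28 divided reads beside 723 and 769 for Gstm3. Their sums of 776 and 773 reads gave 1.00 (0.905 to 1.11).

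In the thioredoxin and peroxiredoxin list the median was 0.00, with 1 of 18 called higher and 2 lower. Txn1, thioredoxin itself, had 408 and 328 reads (1.24, 1.07 to 1.44) but a TPM ratio of 1.09, from 1033 and 944 TPM. Txnip, which binds and blocks thioredoxin, was lower in the Aβ library at 11.7 and 15.2 TPM (0.766, 0.656 to 0.893). Prdx1, the peroxiredoxin that thioredoxin reduces, was at 1427 and 1473 TPM (0.980, 0.951 to 1.01), and Msra, which repairs oxidised methionine, had 88 and 69 reads (1.27, 0.918 to 1.77).

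Heme and iron genes had a median of 0.02, with 5 of 18 called higher and 1 lower, but 2 of those 5 had whole reads. These were Blvrb, which reduces biliverdin, the product of heme oxygenase (74.3 and 62.6 TPM, ratio 1.20, 1.04 to 1.38), and the heme transporter gene Slc48a1 (67.1 and 59.7 TPM, 1.12, 1.02 to 1.24). The ferritin heavy chain Fth1, on divided reads, was at 4112 and 3955 TPM (1.05, 1.03 to 1.07), and Steap3 had 165 and 141 reads (1.17, 0.927 to 1.47). The NADPH supply, on which Gsr, Txnrd1 and Nqo1 draw, lay at a median of −0.01, with 2 of 21 called higher and 2 lower. The malic enzyme gene Me1, which is Nrf2-responsive, was at 115 and 114 TPM (0.996, 0.949 to 1.05). Rpia, of the pentose phosphate pathway, was at 73.0 and 61.5 TPM (1.18, 1.08 to 1.29), and the mitochondrial malic enzyme Me2 was at 45.6 and 51.8 TPM (0.873, 0.810 to 0.941). Aldh1l2 had 78 and 60 reads (1.30, 0.914 to 1.85).

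Other reported Nrf2 targets had a median of 0.01, with 3 of 25 called higher and 3 lower, of which 1 and 2 had whole reads. Trim16, a ubiquitin ligase, had 113 and 158 reads (0.713, 0.555 to 0.914). Ptgr1, a prostaglandin and aldehyde reductase, had 66 and 87 reads (0.757, 0.541 to 1.05). Ugt1a6, a glucuronidating enzyme on divided reads, was at 11.1 and 14.4 TPM (0.767, 0.645 to 0.912). Pir, also called lower, had 485 and 566 reads (0.855, 0.755 to 0.967). Among those called higher, Ugdh had 1317 and 1213 whole reads (1.08, 1.001 to 1.17). Akr1b8 was higher too, on 859 and 700 divided reads (1.22, 1.11 to 1.35). Pir, Ugdh and Akr1b8 were named after their values were seen. Cbr1, carbonyl reductase, was listed at 39.5 divided reads with Aβ and 0 with DMSO, and no fold is given. The row LOC102556347, which the RefSeq table names Cbr1l2, had 618 and 595 divided reads, and the sums of 658 and 595 gave 1.10 (0.986 to 1.23).

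The list of genes that form or remove superoxide and peroxide had a median of 0.15. All 12 measured genes had a read ratio over 1, as had 6548 of the 12980 genes in all, and 4 were called higher and 0 lower. By TPM ratio 10 of the 12 lay over 1, Rac2 (59.7 and 64.5 TPM) and Sod1 (554 and 564 TPM) being the exceptions. Sod2, the mitochondrial superoxide dismutase and also an NF-κB target, was at 149 and 135 TPM (1.10, 1.04 to 1.16). Of the phagocyte NADPH oxidase, which makes superoxide, the catalytic subunit gene Cybb was at 17.4 and 14.0 TPM (1.24, 1.03 to 1.50). Nox1, on divided reads, had 67.2 and 52.6 (1.26, 0.866 to 1.84). Beside this phagocyte gene, 14 of 18 microglia markers were measured, and their summed level was 431 TPM with Aβ and 498 TPM with DMSO. Of them 1 was called higher and 5 lower, C1qa among the latter (53.4 and 80.2 TPM, 0.672, 0.589 to 0.765). None of these markers was at 0, though P2ry12 was at 0.51 and 0.91 TPM, and their part in the result was not tested.

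Slc7a11 and Chac1 are also known targets of Atf4, the transcription factor of the amino acid and integrated stress response, so that list was followed too. Its median was 0.07, with 6 of 27 called higher and 4 lower. Atf4 was at 307 and 289 TPM (1.06, 1.01 to 1.11). Asns, asparagine synthetase, was at 43.0 and 30.8 TPM (1.34, 1.21 to 1.49), whereas Psat1, of serine synthesis and named after its values were seen, was at 211 and 245 TPM (0.856, 0.820 to 0.894). Gdf15 (1.91, 1.26 to 2.95) and Atf3 (1.32, 0.930 to 1.90) both had divided reads. Genes of ferroptosis and lipid peroxide control had a median of 0.10, with 6 of 18 called higher and 0 lower. Among them were Ptgs2, cyclooxygenase, at 11.6 and 4.82 TPM (2.40, 1.83 to 3.18), and Dhodh, a mitochondrial enzyme that keeps ubiquinone reduced, with 207 and 150 reads (1.38, 1.11 to 1.71). Scd, a fatty acid desaturase on divided reads, was at 1.24 (1.19 to 1.28).

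**Figure D4:**
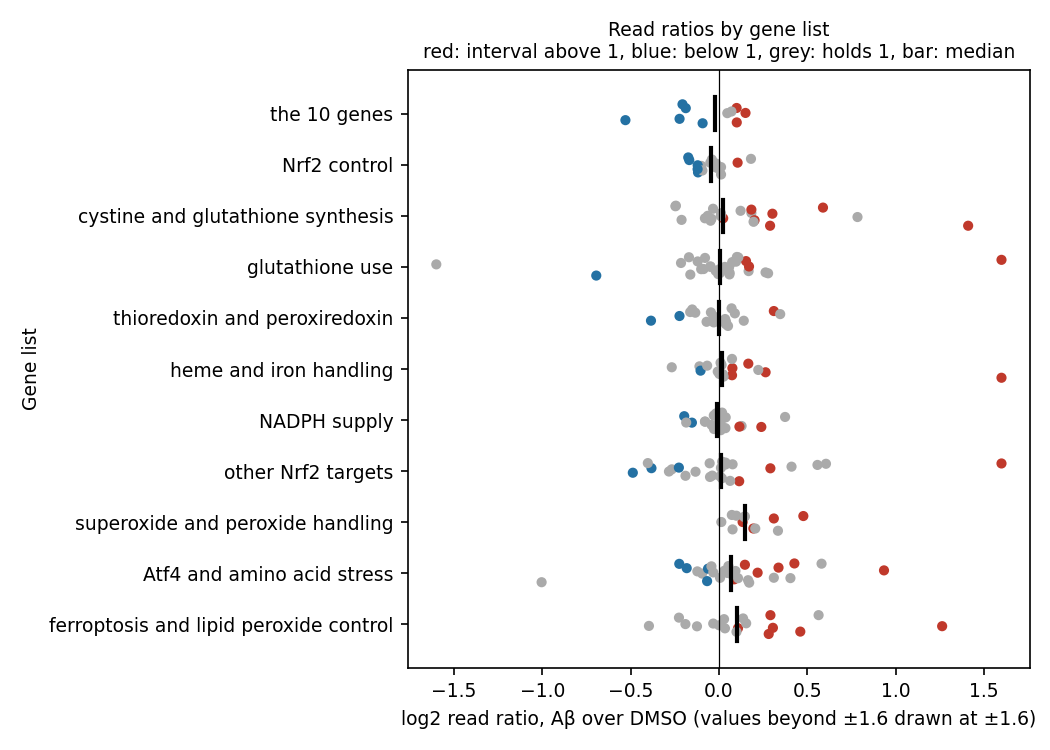
Log2 read ratio, Aβ over DMSO, of each measured gene in the 10 genes and the 10 pathway lists; black bars are medians, red marks an interval above 1, blue below 1 and grey one that holds 1. The medians run from −0.04 to 0.15, and values beyond ±1.6 are drawn at the edge.

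The authors' deposited table of gene ontology terms for genes higher with Aβ was drawn from 391 genes and has 282 terms, in which 246 different genes are printed. The expression data hold 17049 genes, so few genes of any kind are printed. None of the 10 genes is printed in the authors' deposited table, and the 5 called lower could not be expected among genes higher with Aβ. Of the 237 different genes in the pathway lists, 208 of them measured, it prints 11. These are Acsl4, Akr1b8, Asns, Cbr1, Cebpb, Fdft1, Gdf15, Ptgs2, Slc1a5, Slc40a1 and Txn1. Akr1b8, Cbr1, Gdf15 and Slc40a1 had divided reads.

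The label OPC was checked against markers. The outcome was mixed, and the cultures were not shown to hold OPCs alone. The levels of the 10 genes are therefore those of the cultures and are not assigned to OPCs. Olig1 (1421 and 1557 TPM), Olig2 (336 and 375 TPM) and Pdgfra (23.2 and 24.6 TPM) were present. So were Ptprz1 (866 and 905 TPM) and Vcan (14.3 and 13.3 TPM). Sox10, in contrast, was at 0.84 and 1.22 TPM and Gpr17 at 0.13 TPM in both libraries. Low levels were also found for Nkx2-2 (1.96 and 3.17 TPM), Matn4 (0.72 and 0.87 TPM) and Neu4 (0.13 and 0 TPM). Of 10 OPC markers measured, 2 were called higher and 4 lower: Cspg4, which encodes the NG2 proteoglycan (6.65 and 3.70 TPM, 1.78, 1.54 to 2.05), and C1ql1 (8.24 and 4.25 TPM, 1.95, 1.32 to 2.91) were higher, and Olig1, Olig2, Pdgfra and Ptprz1 lower. Astrocyte markers were also high, with 11 of 12 measured and a summed level of 2429 TPM (Aβ) and 2443 TPM (DMSO). Slc1a3 alone held 1013 and 987 TPM of these sums. Of the 11 markers 3 were called higher and 5 lower. Gfap was at 328 and 368 TPM (0.887, 0.861 to 0.914) and Aldoc at 205 and 175 TPM (1.17, 1.10 to 1.23). Of 6 fibroblast markers measured 0 were higher and 4 lower, Fn1 among the latter (19.0 and 25.4 TPM, 0.739, 0.691 to 0.790). Their summed levels were 249 and 262 TPM, of which Col6a1 held 192 and 191. Col1a1, Col1a2 and Col3a1 lay between 0.45 and 3.07 TPM. Of 8 mature oligodendrocyte markers 0 were higher and 3 lower (217 and 232 TPM summed, of which Cnp held 169 and 178). Of 10 neuron markers 3 were higher and 2 lower (165 and 159 TPM summed, of which Map2 held 105 and 107). Each of these 3 sums thus rests mostly on 1 gene. Among all genes 12% were called higher and 12.5% lower. Glial cells other than OPCs also express the 10 genes, and the part of such cells in the levels and ratios was not tested.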

How the data were processed

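RNA-seq of 2 libraries was analysed, 1 with Aβ and 1 with DMSO. Groups follow the treatment label, since the protocol text describes Aβ exposure for both. Alignment used Bowtie2 and the build Rnor_6.0, per the submitters' processing notes; for the counting tool and annotation, sources used here give nothing. The authors deposited estimated counts per gene, TPM and FPKM. Their columns named normalized hold the count rounded up in every one of 17049 rows. Apart from that check these columns were left unused, as was FPKM. Of the enrichment table, whose columns per the file headers include a fold ratio, p-value and z score, only gene names were used.

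Counts were rounded to whole numbers and scaled by the library total. Read ratios have exact Clopper-Pearson 95% intervals (scipy 1.17.1). These intervals cover counting error only and take reads as independent. The reads carry no molecular identifiers, so copies of 1 molecule could count as separate reads and the intervals may be too narrow. Uncertainty in how divided reads were shared out is not covered. A count of 0 allows 3 reads, 0.191 and 0.192 CPM. Genes were measured at 1 TPM or more in either library. Counts not whole in a library held 13.1% (Aβ) and 12.3% (DMSO) of reads; all 10 members had whole counts. The interval script was tested on simulated data. Alternatives were TMM factors (edgeR 4.0.16), median-of-ratios factors (DESeq2 1.42.0), TPM ratios, a pseudocount of 1, 99% intervals, 2-fold, and other filters. Sequences are RefSeq's, of GRCr8, matched by gene number. Named were all members, 16 fixed genes and, in each list, the 3 genes furthest from equal with 100 reads or more over both libraries; some of these are not reported here. Members and lists were chosen with earlier results of these data known; the comparison with genes of 1000 reads or more was added after seeing the data.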

Additional observations from a re-analysis of the deposited data

How the results depend on the processing

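Of 40 alternative values with an interval for the 10 genes (TMM and median-of-ratios scaling, TPM ratio, 99% interval), 37 kept their direction and call and 0 reversed. Much of this was fixed in advance. The TMM factors were 0.9999 (Aβ) and 1.0001 (DMSO) and the median-of-ratios factors 1 and 1, so these scalings could hardly move a ratio. The 99% interval leaves the ratio as it is and cannot reverse a direction. The TPM ratio with a pseudocount of 1 has no interval, and its direction was the same for 10 of 10. With the 99% interval the calls of Nfe2l2, Gsr and Osgin1 were lost, because that interval is wider. The number called higher was then 1 in place of 3, Gclc, and 4 in place of 5 were lower. At 2-fold 0 genes were past the rule, in place of 1 by the smaller rule of size. For the 10 pathway lists all 40 alternative medians (2 filters, TMM scaling, and leaving out genes of divided reads, the last chosen after seeing the data) lay within the order-statistic interval of the list's median. With factors so near 1, TMM scaling could not move these medians by much. Leaving out divided reads lowered the number called higher from 3 to 1 for genes that use glutathione, from 5 to 2 for heme and iron, and from 3 to 1 for other Nrf2 targets, where the number called lower went from 3 to 2. In the NADPH list the number called lower went from 2 to 1. No paired analysis was possible because each group has 1 library, and no library could be left out. Osgin1, on 161 reads in all, and Chac1 are limited by depth.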
